A study of Mus musculus with 12 samples.

Results

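Chromatin accessibility was described at 10 genes chosen by their response to lipopolysaccharide (LPS), a bacterial endotoxin, in graft-derived brain macrophages and in host microglia. The genes were Nckap1l, Osbpl8, Tmem260, Zfp703, Smg9, Lyst, Hal, Tasp1, Fam49a and Samsn1, and every peak annotated to one of them was taken, 81 of 60288 peaks in the table of untreated mice and 84 of 54953 in the table of LPS-treated mice. They were selected on strong distal peaks raised after LPS, so the rise itself is given as a description and no test of it is reported. Open chromatin was measured by ATAC-seq, in which a transposase cuts accessible DNA and leaves sequencing adapters there. Wild-type (WT) C57BL/6J mice had received 950 cGy of irradiation and then bone marrow (BM) of a donor, and CD45.1 and CD45.2 brain macrophages were sorted from the same animal, 30000 to 50000 cells for each of the 12 libraries. By the study, CD45.1 marks descendants of the graft. CD45.2 marks the microglia of the host, which were themselves irradiated, and no group lacked irradiation. Each of the 4 groups held 3 libraries. Untreated mice were numbered 4, 5 and 6, and mice taken 12 h after 2.5 mg/kg of LPS were numbered 1, 2 and 3. The labels allow 3.5 or 9 months between transplantation and analysis without assigning either to a mouse, and the study describes these animals at 9 months. Recipients were 6 weeks old at irradiation.

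A macrophage senses LPS through a Toll-like receptor, whose signalling activates transcription factors of the NF-kappaB and AP-1 families. These factors act largely at enhancers, stretches of open DNA that can lie far from the gene they serve, and in macrophages many enhancers are already held open by the lineage factor PU.1, while others open on stimulation. ATAC-seq records the opening and not the factor bound, and the annotation of a distal peak to the nearest start site does not show that the peak serves that gene. The 10 genes have different known roles. Nckap1l, Fam49a and Samsn1 act around the actin cytoskeleton or signalling of blood cells, Osbpl8, Lyst and Tmem260 work at membranes, and Zfp703, Smg9, Tasp1 and Hal encode nuclear, RNA-surveillance or metabolic proteins.

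Peaks were called, merged and counted by the authors separately in each treatment, so treatment cannot be told apart from the peak set, the mice or the depth. Libraries held 8392877.5 to 9107770 tags in untreated mice and 2966364 to 6556594.5 after LPS, and 18.4 to 39.0% and 26.3 to 38.9% of them lay in peaks. Merged peaks were wider after LPS (median 167 against 132 bp), and over peaks present in both tables the median ratio of widths was 1.22. Promoter peaks were found at 5 of 7 macrophage genes in the untreated and 6 of 7 in the LPS table, with Aif1 missing from both and Csf1r from the untreated one, and at 5 of 5 microglia genes in each. In untreated mice the summed microglia promoters held 234 to 299.7 normalized tags in CD45.1 and 379 to 434 in CD45.2 libraries, and after LPS 205 to 255 and 242 to 292. No promoter peak was found for genes of endothelium, T and NK cells or B cells. The neutrophil gene S100a8 had one in the LPS table only, at 8.20 to 28.7 normalized tags in CD45.1 and 12.6 to 42 in CD45.2, with Ly6g, Mpo and Elane absent. In neurons, oligodendrocytes and astrocytes 1 of 4, 1 of 4 and 2 of 4 genes had a promoter peak in the LPS table, with 0.586 to 30.3 tags per library summed over each list, and 1, 1 and 0 had one in the untreated table, with 1.07 to 31.9 tags where present. The part of such cells in the results was not tested. In bulk libraries a smaller share of cells with the site open and less opening per cell cannot be told apart.

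Of the peaks at the 10 genes, 59 were found in both tables with an overlap of at least 50% of each peak, among 39390 such matched peaks in the genome, and 47 of the 59 lay more than 1000 bp from the annotated start site. A peak is named here by its gene and its distance in kb from that start site, with a minus sign for upstream. Levels at matched peaks are tags divided by a size factor estimated over all 12 libraries, listed in the order of the mouse numbers. A matched peak was called raised in both populations when its log2 fold change was over 1 (2-fold) in each and every LPS library exceeded every untreated library of the same population. By this measure 14 of the 59 peaks were raised, with at least 1 for each of the 10 genes, 3 for Fam49a, 2 for Lyst, 2 for Samsn1 and 1 for each of the other 7. Over all matched peaks 4.67% met the same rule, and since the genes were chosen for it nothing is read from the difference.

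The sequences of 7 raised peaks are shown, the 4 whose rise differed between the populations and 3 of those that passed no test between the populations. They are the plus strand of build mm9, 5′ to 3′, in the coordinates of the LPS table, and capitals mark matches to any of 9 motifs described with the motif counts. Fam49a -38.6 kb (chr12:12230264-12230436) lies upstream of the gene, Samsn1 +53.6 kb (chr16:75855784-75855947) past its 3′ end, Osbpl8 -37.2 kb (chr10:110564529-110564759) in an intergenic MIR element, and Hal -0.1 kb (chr10:92951267-92951469) at the promoter. In GENCODE vM1 gene models the protein-coding start site nearest to Osbpl8 -37.2 kb was that of Gm5428, at 1737 bp, against 37214 bp for Osbpl8. Nckap1l +17.9 kb (chr15:103302035-103302212) lies inside the gene, in intron 11 of 30 by the deposited annotation and overlapping an exon of it in GENCODE vM1. Tmem260 -23.9 kb (chr14:49041748-49041974) and Smg9 -12.2 kb (chr7:25172296-25172556) are intergenic, the latter between Kcnn4 and Smg9.
Fam49a -38.6 kb: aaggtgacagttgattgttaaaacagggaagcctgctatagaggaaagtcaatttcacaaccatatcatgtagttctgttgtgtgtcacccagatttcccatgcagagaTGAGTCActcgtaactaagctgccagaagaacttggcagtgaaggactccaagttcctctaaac
Samsn1 +53.6 kb: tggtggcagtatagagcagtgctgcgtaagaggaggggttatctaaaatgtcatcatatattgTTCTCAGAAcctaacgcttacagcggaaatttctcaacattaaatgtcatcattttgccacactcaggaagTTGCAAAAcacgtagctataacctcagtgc
Osbpl8 -37.2 kb: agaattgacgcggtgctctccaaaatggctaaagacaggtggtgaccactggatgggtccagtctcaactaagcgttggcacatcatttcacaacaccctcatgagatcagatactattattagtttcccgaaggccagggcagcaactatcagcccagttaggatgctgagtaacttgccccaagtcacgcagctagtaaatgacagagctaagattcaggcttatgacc
Hal -0.1 kb: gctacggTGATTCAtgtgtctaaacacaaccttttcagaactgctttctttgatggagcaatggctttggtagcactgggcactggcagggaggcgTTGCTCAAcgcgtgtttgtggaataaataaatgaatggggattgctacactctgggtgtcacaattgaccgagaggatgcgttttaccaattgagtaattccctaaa
Nckap1l +17.9 kb: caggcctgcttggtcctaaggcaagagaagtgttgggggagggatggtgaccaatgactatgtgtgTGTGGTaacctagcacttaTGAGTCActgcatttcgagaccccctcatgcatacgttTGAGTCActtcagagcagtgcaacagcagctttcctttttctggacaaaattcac
Tmem260 -23.9 kb: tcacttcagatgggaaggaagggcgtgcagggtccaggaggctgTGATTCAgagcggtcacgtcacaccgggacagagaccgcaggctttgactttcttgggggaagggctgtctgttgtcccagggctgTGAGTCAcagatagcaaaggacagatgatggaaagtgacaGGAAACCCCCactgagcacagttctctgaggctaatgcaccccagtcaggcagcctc
Smg9 -12.2 kb: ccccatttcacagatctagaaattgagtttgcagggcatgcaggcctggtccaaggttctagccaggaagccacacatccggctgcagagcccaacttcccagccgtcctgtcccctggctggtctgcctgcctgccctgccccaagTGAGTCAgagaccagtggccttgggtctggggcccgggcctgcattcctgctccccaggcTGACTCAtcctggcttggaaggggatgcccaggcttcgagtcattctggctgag

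The Fam49a and Hal sequences hold 1 AP-1 match each, and those of Nckap1l, Tmem260 and Smg9 hold 2 each. The Hal sequence also holds a CEBP match, the Nckap1l sequence a RUNX match and the Tmem260 sequence an NF-kappaB match. The Samsn1 sequence holds a CEBP and a STAT match, and the Osbpl8 sequence holds none of the 9 motifs. Among raised peaks that passed no test between the populations, those shown rose most by the smaller of both changes. Of those not shown, Lyst -51.7 kb and Lyst -64.3 kb hold none of the 9 motifs and Fam49a +2.2 kb holds 1 AP-1 match.

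Nckap1l, which encodes the blood-cell subunit (HEM1) of the WAVE complex that starts actin branching, had the largest rise of the set in CD45.1 and by the smaller of both changes. At Nckap1l +17.9 kb the CD45.1 libraries held 1.24, 3.67 and 0 normalized tags untreated and 82, 105 and 96.5 after LPS. The CD45.2 libraries held 4.35, 4.22 and 5.49 untreated and 80.7, 115 and 116 after LPS. The site was near closed in all 6 untreated libraries and the LPS groups of both populations stood far above them without overlap. The untreated CD45.1 values rest on 2.5, 6.5 and 0.5 raw tags, rounded to whole numbers before scaling. The log2 fold change was 5.77 ± 0.56 (SE) for CD45.1 and 4.48 ± 0.38 for CD45.2. By the smaller of these changes it ranked 1 of 26519 distal matched peaks. The genes were chosen for such rises, so nothing is read from this rank. The peak was in 1 of 3 CD45.1 and 2 of 3 CD45.2 untreated single-library lists and in all 6 lists after LPS. The promoter of Nckap1l held 114 ± 4.54 and 119 ± 8.88 tags (mean ± SD, n = 3) in the untreated CD45.1 and CD45.2 groups and 141 ± 15.7 and 132 ± 24 after LPS, so the promoter was open before LPS and its log2 change was 0.30 ± 0.17 and 0.19 ± 0.17.

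Fam49a, whose product CYRI-A binds the active form of RAC1 and restrains actin branching, had the most peaks, 19 untreated and 18 after LPS. At Fam49a -38.6 kb the CD45.1 libraries held 29.3, 25.7 and 35.8 tags untreated and 82, 132 and 89.5 after LPS. The CD45.2 libraries went from 4.35, 3.16 and 3.30 to 83.2, 78.3 and 78.8. Before LPS every CD45.1 library was above every CD45.2 library, and after LPS the ranges of the populations overlapped. The log2 fold change after LPS was 1.72 ± 0.25 for CD45.1 and 4.52 ± 0.42 for CD45.2, and the peak was in 3 untreated CD45.1 lists, no untreated CD45.2 list and all 6 lists after LPS. The lead peak of the gene, the distal peak with the largest rise in the population where it rose less, was Fam49a +16.4 kb (chr12:12285234-12285484, intron 2), at 13.1, 17.1 and 20.1 tags in untreated and 51.6, 64.1 and 51.8 in LPS CD45.1 libraries. In CD45.2 the values were 8.7, 3.69 and 7.69 untreated and 12.6, 26.5 and 34.1 after LPS. Both populations rose there, by 1.73 ± 0.33 and 2.05 ± 0.42 on the log2 scale, and CD45.1 was higher at both stages. The other raised site, Fam49a +2.2 kb, was named after its values were seen and lay just inside the 2-fold limit, at 1.27 ± 0.27 and 1.09 ± 0.27. Just outside the rule were the Smg9 peak 10 kb upstream at 1.03 ± 0.25 and 0.99 ± 0.24, and Fam49a -85.3 kb at 1.09 ± 0.51 and 1.49 ± 0.59, whose groups overlapped in CD45.1. The promoter of Fam49a changed by 0.22 ± 0.26 and -0.20 ± 0.27.

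Samsn1 encodes a SAM- and SH3-domain adaptor of blood cells. At Samsn1 +53.6 kb the untreated CD45.1 libraries held 68.5, 49 and 71.7 tags and the untreated CD45.2 libraries 8.7, 4.22 and 12.6. After LPS they held 115, 139.9 and 151 in CD45.1 and 70.6, 74.5 and 80.5 in CD45.2. CD45.1 was above CD45.2 in every library of each treatment, and the rise was 1.10 ± 0.22 for CD45.1 and 3.17 ± 0.32 for CD45.2 (log2 fold change ± SE). The lead peak by the same measure was Samsn1 -52.3 kb (chr16:75961794-75961918), with 28.6, 16.5 and 19.3 tags in untreated and 31.6, 50.5 and 83.9 in LPS CD45.1 libraries. CD45.2 libraries held 8.7, 5.27 and 6.59 untreated and 27.7, 25.3 and 35 after LPS. LPS mouse 1 was the lowest CD45.1 LPS library, at little above the highest untreated one, and the log2 fold changes were 1.36 ± 0.35 and 2.18 ± 0.43. This peak was in only 3 of the 6 single-library lists after LPS, and in GENCODE vM1 it lies inside a longer Samsn1 gene model. The promoter of Samsn1 changed by 0.02 ± 0.19 and -0.31 ± 0.19.

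Osbpl8 encodes an endoplasmic-reticulum protein that moves lipids at contacts with the plasma membrane. At Osbpl8 -37.2 kb the CD45.1 libraries held 36.1, 33.1 and 55.2 tags untreated and 162, 208 and 215 after LPS. The CD45.2 libraries held 9.79, 6.32 and 11 untreated and 166, 109 and 94.5 after LPS. All untreated CD45.1 libraries were above all untreated CD45.2 libraries, and the populations overlapped after LPS. On the log2 scale the rise was 2.24 ± 0.23 for CD45.1 and 3.74 ± 0.31 for CD45.2. Osbpl8 also held the 1 matched peak of the 59 that fell more than 2-fold in both populations with groups apart, against 2.43% of all matched peaks, which is named here after its values were seen. At that peak, Osbpl8 -4.8 kb, CD45.1 libraries held 66, 74.7 and 55.2 tags untreated and 35.2, 23.3 and 14 after LPS, and CD45.2 libraries 43.5, 44.3 and 48.4 untreated and 15.1, 13.9 and 7.88 after LPS. The Osbpl8 promoter changed by 0.62 ± 0.17 and 0.43 ± 0.17.

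Lyst, the BEACH-domain protein that sets the size of lysosome-related organelles and is mutated in beige mice, had a group of intergenic peaks far upstream. At Lyst -51.7 kb (chr13:13630893-13631113) the CD45.1 libraries held 24.3, 19.6 and 12.9 tags untreated and 129, 165 and 158 after LPS. In CD45.2 the values were 30.5, 26.9 and 28.6 untreated and 182, 150.4 and 121 after LPS. The populations overlapped after LPS, and untreated CD45.1 was the lower one in each library. The rise in log2 units was 2.97 ± 0.24 and 2.38 ± 0.23. Its neighbour Lyst -64.3 kb, named after its values were seen, rose by 1.82 ± 0.30 and 1.64 ± 0.28, while Lyst -61.2 kb between them changed by 0.91 ± 0.27 and 0.43 ± 0.27. The promoter changed by 0.64 ± 0.17 and 0.35 ± 0.17.

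Tmem260 encodes a membrane protein with O-mannosyltransferase activity. The LPS peak Tmem260 -23.9 kb overlapped 2 untreated peaks, and the values given use the larger overlap only. The CD45.1 libraries held 11.8, 11 and 8.6 tags untreated and 152, 136 and 189 after LPS. CD45.2 libraries held 25, 14.2 and 13.7 untreated and 136, 140.2 and 119 after LPS. The populations overlapped after LPS, and untreated CD45.2 was above untreated CD45.1 in each library. The log2 fold change was 3.92 ± 0.28 and 2.98 ± 0.25. Summed over both untreated peaks, an alternative chosen after seeing the data, untreated tags were 20.5, 18.4 and 16.5 in CD45.1 and 33.7, 26.9 and 21.4 in CD45.2, and the log2 ratio of the group means was 3.11 and 2.27. The promoter changed by 0.36 ± 0.19 and 0.34 ± 0.19.

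Smg9, a subunit of the SMG1 kinase complex of nonsense-mediated RNA decay, had its raised peak at Smg9 -12.2 kb. The CD45.1 libraries held 18.7, 15.9 and 28.7 tags untreated and 141, 171 and 165 after LPS, and the CD45.2 libraries 23.9, 24.2 and 24.7 untreated and 146, 136 and 140.0 after LPS. The populations overlapped at both stages. On the log2 scale the rise was 2.92 ± 0.23 and 2.53 ± 0.22, and the peak over the start site changed the other way in its mean, by -0.75 ± 0.29 and -0.37 ± 0.26.

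Zfp703 encodes a zinc-finger co-repressor of the NET family. At Zfp703 -13.8 kb (chr8:28073928-28074100) the CD45.1 libraries held 21.2, 15.9 and 31.5 tags untreated and 102, 117 and 122 after LPS. The CD45.2 libraries held 10.9, 8.96 and 4.40 untreated and 95.8, 101 and 110.3 after LPS. CD45.2 was lower in every untreated library, and the populations overlapped after LPS. The rise in log2 units was 2.32 ± 0.25 and 3.76 ± 0.32, against 0.70 ± 0.18 and 0.40 ± 0.18 at the promoter. Tasp1 encodes taspase, the threonine protease that cleaves MLL-family histone methyltransferases. At Tasp1 +146.8 kb (chr2:139745609-139745809, an intron) the CD45.1 libraries held 18.7, 11 and 15.8 tags untreated and 103, 161 and 123 after LPS, and the CD45.2 libraries 6.53, 2.63 and 5.49 untreated and 95.8, 109 and 77 after LPS. Here too CD45.2 was lower in every untreated library, and the populations overlapped after LPS. The log2 fold change was 3.08 ± 0.28 and 4.35 ± 0.39, against 0.70 ± 0.17 and 0.52 ± 0.18 at the promoter.

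Hal, histidine ammonia-lyase, which turns histidine into urocanate, did not follow the description of the set. Its raised peak was the promoter, Hal -0.1 kb, where the CD45.1 libraries held 20.5, 10.4 and 29.4 tags untreated and 154, 183 and 148 after LPS. In CD45.2 the values were 3.26, 0.527 and 3.30 untreated and 95.8, 91 and 96.3 after LPS. The promoter was near closed in untreated CD45.2 cells, on 3, 1 and 6.5 raw tags, and CD45.1 was above CD45.2 in every library of each treatment. On the log2 scale the rise was 3.02 ± 0.26 for CD45.1 and 5.44 ± 0.51 for CD45.2. Its lead distal peak, Hal -17.1 kb (chr10:92934296-92934457), lies in an intron of the neighbour Lta4h, which encodes leukotriene A4 hydrolase. It held 21.2, 15.3 and 21.5 tags in untreated and 15.2, 27.2 and 25.2 in LPS CD45.1 libraries, and in CD45.2 it held 19.6, 20.6 and 25.3 untreated and 20.2, 20.2 and 21 after LPS. The groups overlapped, with log2 changes of 0.19 ± 0.36 and -0.10 ± 0.36.

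**Figure D1:**
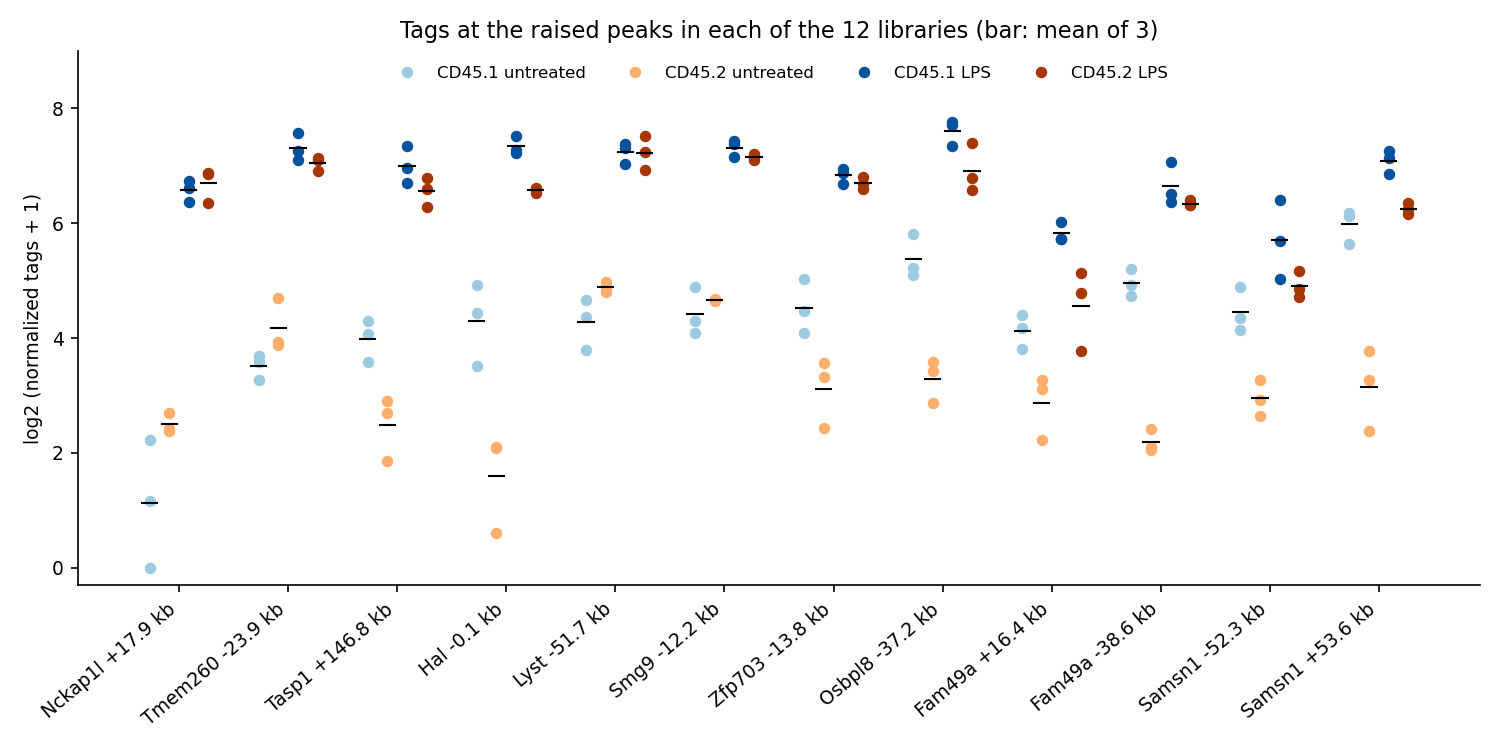
Level at 12 of the raised peaks in each library, as log2 of normalized tags plus 1 on the y axis, with the peaks on the x axis, a point per library and a bar at the mean of 3 libraries. In each population the LPS points lie above the untreated ones, and at the 6 right-hand peaks the untreated CD45.2 points lie below the untreated CD45.1 points.

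Across the 59 matched peaks, 18 were over 2-fold higher with groups apart in CD45.1 and 17 in CD45.2, and over all matched peaks these shares were 7.42% and 8.59%. The median log2 fold change of the 59 was 0.62 for CD45.1 and 0.43 for CD45.2, and over all matched peaks it was -0.0045 and -0.0072. The 45 peaks that were not raised in both ranged from -1.41 to 1.64 in CD45.1 and from -2.0 to 1.78 in CD45.2. The 11 peaks within 1000 bp of a start site, other than that of Hal, ranged from -0.75 to 0.87 in CD45.1 and from -0.37 to 0.90 in CD45.2. The raised peaks were distal at 9 of the genes and at the promoter of Hal. Dividing tags by the width of each table's own peak moved the median of all matched peaks by -0.27 in both populations and left 12 raised peaks, without those of Samsn1. The LPS peak was 0.97 to 1.91 times as wide as its untreated partner at the 14 raised peaks (median 1.41), and over 1.5 times as wide at 5 of them. Per 100 bp of width, the log2 change in CD45.1 and CD45.2 at these 5 was 4.86 and 3.58 at Nckap1l +17.9 kb, 2.14 and 3.41 at Tasp1 +146.8 kb, 2.05 and 1.46 at Lyst -51.7 kb, 1.02 and 3.82 at Fam49a -38.6 kb, and 1.55 and 3.05 at Osbpl8 -37.2 kb. Scaling to total tags left 13, without Fam49a +2.2 kb.

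**Figure D2:**
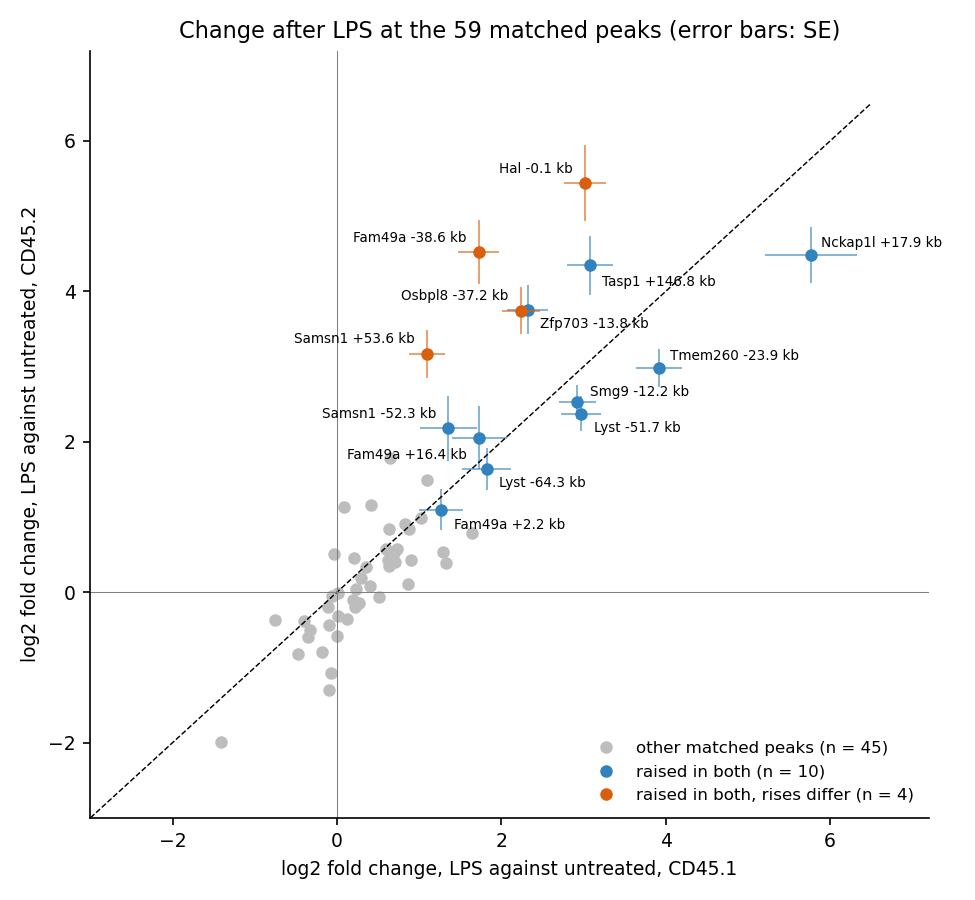
Log2 fold change after LPS in CD45.1 (x axis) and CD45.2 (y axis) cells at the 59 matched peaks, with SE bars on the raised peaks and the dashed line of equal change. The 4 orange peaks, whose rises differed in the test of the interaction, lie above the line, and Nckap1l +17.9 kb lies furthest to the right at 5.77.

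The rule that chose the genes did not use the difference between the populations within a treatment, and this was tested with DESeq2 in each table on its own 6 libraries, with p-values adjusted over all tested peaks by the Benjamini-Hochberg method. In untreated mice 14 of 79 tested peaks at the 10 genes were higher in CD45.1 and 3 were higher in CD45.2 (adjusted p under 0.05), against 8.54% and 6.32% of all tested peaks. At a stricter limit, adjusted p under 0.01 and over 4-fold, 7 of 79 were higher in CD45.1, against 3.78%. Of the 14 raised peaks, 8 at 6 genes were higher in untreated CD45.1 cells at an adjusted p under 0.05. The rule for raised peaks used the same untreated libraries, and the share over all raised peaks of the genome was not counted. Nothing is therefore read from this number, and some of these calls were lost with the mouse as a block. The median log2 difference over the tested peaks of the set was 0.088, and over all peaks 0.00084.

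Among the raised peaks the smallest adjusted p-values in untreated mice were at Samsn1 +53.6 kb, with a log2 difference (CD45.1 minus CD45.2) of 2.92 ± 0.35 (SE) and an adjusted p of 3.21e-14 by DESeq2, and at Fam49a -38.6 kb, with 3.14 ± 0.48 and 1.01e-08. Hal -0.1 kb differed by 3.20 ± 0.64 (adjusted p = 2.13e-05) and Osbpl8 -37.2 kb by 2.23 ± 0.37 (adjusted p = 1.16e-07). The smaller differences at Samsn1 -52.3 kb (1.72 ± 0.45, adjusted p = 0.00181), Zfp703 -13.8 kb (1.57 ± 0.45, 0.00484), Tasp1 +146.8 kb (1.72 ± 0.53, 0.0121) and Fam49a +16.4 kb (1.40 ± 0.48, 0.0292) passed the same test. With the mouse as a block, since both populations came from the same animals, the adjusted p was 0.0501 at Zfp703, 0.0635 at Tasp1 and 0.12 at Fam49a +16.4 kb, and these calls were lost. At the other 6 raised peaks, of Nckap1l, Tmem260, Smg9, Lyst and Fam49a +2.2 kb, the log2 difference lay between -1.47 (SE 0.93) and 0.01 (SE 0.28) and did not pass.

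Other peaks of the same genes that were not raised in both populations also differed between the untreated populations. Levels of unmatched peaks are scaled over the 6 libraries of their own treatment. Fam49a +58.8 kb (chr12:12327677-12327802, intron 2) had 44.8, 42 and 78.4 tags in CD45.1 and 8.19, 4.64 and 5.68 in CD45.2, a log2 difference of 3.23 ± 0.47 (adjusted p = 1.07e-09). It was in 3 CD45.1 and no CD45.2 untreated list. Hal -4.0 kb (chr10:92947398-92947551), which lies in the last exon of Lta4h, had 49.4, 49.3 and 30.5 tags in CD45.1 and 1.64, 2.32 and 6.49 in CD45.2, a difference of 3.52 ± 0.55 (adjusted p = 1.98e-08). Neither pair of groups overlapped, and the LPS table had no peak overlapping Hal -4.0 kb. At Fam49a -12.4 kb the matched levels were 18.7, 25.7 and 13.6 in CD45.1 and 1.09, 3.16 and 4.40 in CD45.2, and after LPS 18.8, 19.4 and 23.8 in CD45.1 and 2.52, 5.05 and 10.5 in CD45.2. CD45.1 was above CD45.2 in every library of each treatment, and the untreated difference was 2.65 ± 0.56 (adjusted p = 6.32e-05). At Fam49a -31.8 kb, in an LTR element, untreated CD45.1 libraries held 15.6, 21.4 and 28.7 tags and CD45.2 libraries 2.18, 6.32 and 13.2, and after LPS 28.1, 48.6 and 28 in CD45.1 and 20.2, 22.7 and 35 in CD45.2. The untreated groups were apart, the LPS groups overlapped, and the untreated difference was 1.52 ± 0.47 (adjusted p = 0.0126). At Fam49a +39.9 kb the values were 106, 108 and 93.2 against 64.2, 65.9 and 68.7 untreated and 105, 138 and 115 against 111, 96 and 76.1 after LPS, with an untreated difference of 0.64 ± 0.18 (adjusted p = 0.0032). This site was strongly open in all groups.

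Samsn1 held calls in both directions. At Samsn1 -52.0 kb untreated CD45.1 libraries held 95.9, 138 and 93.9 tags and CD45.2 libraries 56.6, 40.1 and 54.4, and after LPS 113, 146 and 182 in CD45.1 and 136, 116 and 89.3 in CD45.2. CD45.1 was higher before LPS, by 1.16 ± 0.21 (adjusted p = 2.14e-06), and the groups overlapped after it. At Samsn1 -8.5 kb the untreated CD45.1 libraries held 14.3, 15.9 and 14.3 and the CD45.2 libraries 44.6, 42.7 and 50.0 tags, and after LPS 30.5, 38.9 and 69.9 in CD45.1 and 80.7, 73.3 and 84 in CD45.2. CD45.2 was higher in every library of each treatment, with an untreated difference of -1.60 ± 0.30 (adjusted p = 3.13e-06). The other 2 peaks higher in untreated CD45.2 were Lyst -66.1 kb and Tmem260 +12.7 kb. Lyst -66.1 kb held 33.6, 39.2 and 20.1 tags in CD45.1 and 68.5, 48.5 and 51.6 in CD45.2 untreated, and 75, 89.4 and 67.1 in CD45.1 and 88.3, 79.6 and 75.3 in CD45.2 after LPS. The untreated difference was -0.81 (adjusted p = 0.0193), and after LPS the populations overlapped. Tmem260 +12.7 kb, in an intron, held 39.8, 51.4 and 25.8 tags in CD45.1 and 63.1, 61.1 and 76.9 in CD45.2 untreated, and 28.1, 23.3 and 36.4 in CD45.1 and 53, 55.6 and 47.3 in CD45.2 after LPS, with an untreated difference of -0.76 (adjusted p = 0.0167). CD45.2 was higher in every library of each treatment. With the mouse as a block the adjusted p was 0.0638 at Lyst -66.1 kb and 0.0818 at Tmem260 +12.7 kb, and both calls were lost. Leaving out 1 library at a time kept 10 of the 17 calls throughout and lost 7 in at least 1 case. Those of Lyst -66.1 kb and Fam49a +16.4 kb were lost in 5 of 6 cases (adjusted p up to 0.202 and 0.329), that of Tmem260 +12.7 kb in 4 (up to 0.219), and those of Tasp1 +146.8 kb and Fam49a -31.8 kb in 3 (up to 0.2 and 0.143). Samsn1 -52.3 kb was lost without CD45.1 mouse 4 (adjusted p = 0.0799) or CD45.2 mouse 5 (0.0571), and Zfp703 -13.8 kb without CD45.1 mouse 6 (0.094) or CD45.2 mouse 6 (0.123). The count fell furthest, to 11, without CD45.2 mouse 5.

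**Figure D3:**
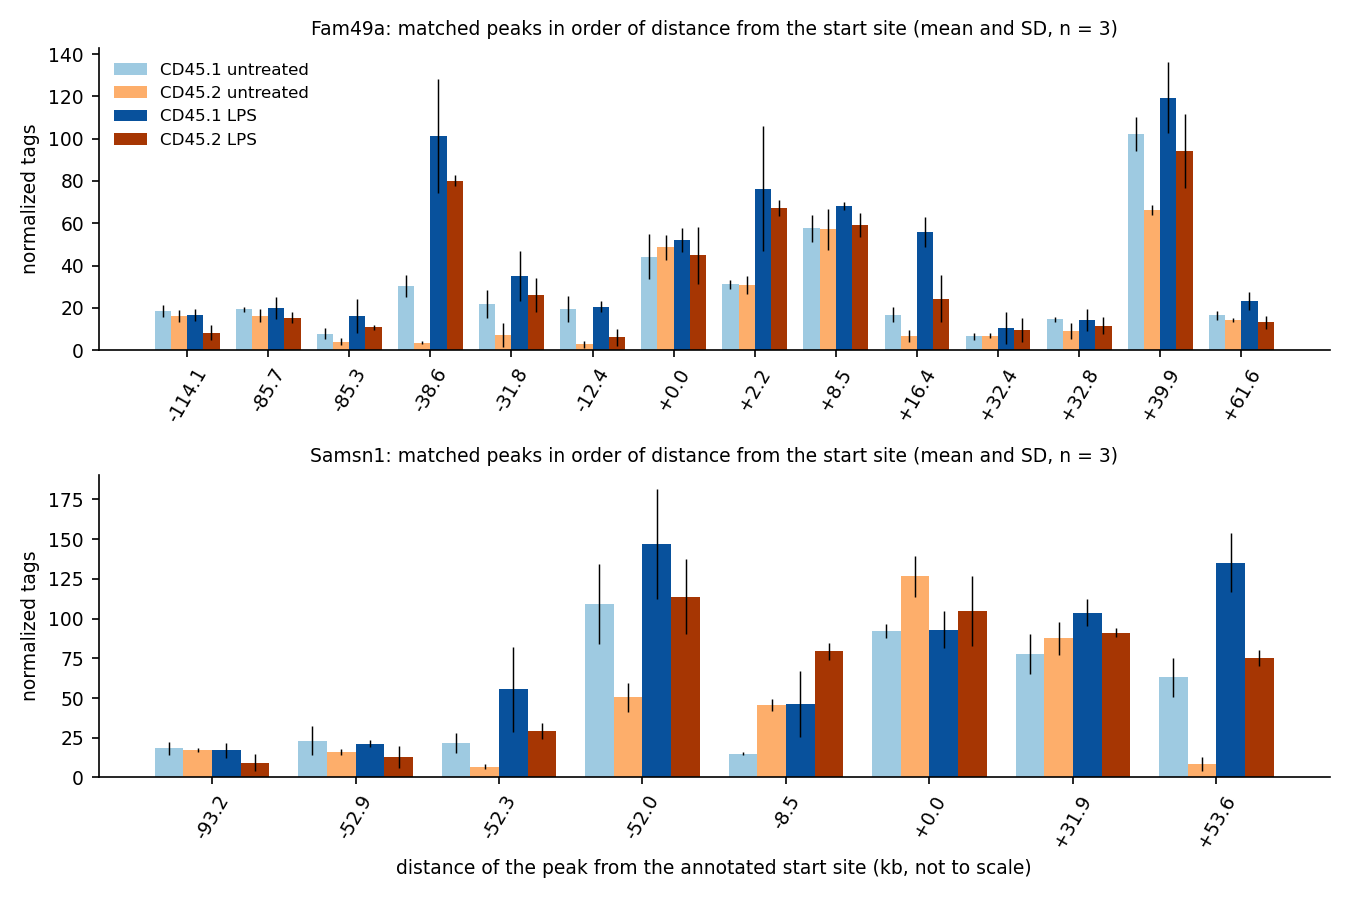
Mean and SD (n = 3) of normalized tags (y axis) at the matched peaks of Fam49a (upper panel) and Samsn1 (lower panel), in order of distance in kb from the start site (x axis, not to scale), in the 4 groups. Fam49a -38.6 kb and Samsn1 +53.6 kb have their lowest bar in untreated CD45.2, whereas the 4 bars of Fam49a +8.5 kb are alike in height.

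After LPS, 7 of 78 tested peaks of the set were higher in CD45.1, against 4.08% of all tested peaks, and 0 were higher in CD45.2, against 2.38%. At an unadjusted p under 0.05 DESeq2 gave 11 and 2, and edgeR at an adjusted p under 0.05 gave 2 that were higher in CD45.2. Only 2 of the 14 raised peaks were among the 7. Hal -0.1 kb differed by 0.75 ± 0.22 on the log2 scale (adjusted p = 0.0167) and Samsn1 +53.6 kb by 0.81 ± 0.24 (adjusted p = 0.0186). With the mouse as a block these adjusted p-values were 0.168 and 0.142. At Osbpl8 -37.2 kb the difference was 0.68 ± 0.24 (adjusted p = 0.0577), at Fam49a +16.4 kb 1.07 ± 0.39 (0.0735), at Samsn1 -52.3 kb 0.87 ± 0.40 (0.237), and at Fam49a -38.6 kb 0.30 ± 0.27 (0.688), and none of these passed.

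The other 5 calls lay at peaks that were not raised in both populations. Osbpl8 -30.0 kb (chr10:110571759-110571904, in a SINE), had 14.6, 23.5 and 37.7 tags in CD45.1 and 5.25, 6.98 and 7.12 in CD45.2, scaled over the 6 LPS libraries, a log2 difference of 1.92 ± 0.54 (adjusted p = 0.00961). Fam49a +58.8 kb had 25.9, 31.3 and 23.6 in CD45.1 and 3.50, 6.11 and 10.1 in CD45.2, a difference of 1.89 ± 0.50 (adjusted p = 0.00532). Samsn1 -20.6 kb had 9.7, 19.6 and 7.55 in CD45.1 and 0, 0 and 2.97 in CD45.2 (adjusted p = 0.0207), and Samsn1 -24.3 kb had 6.47, 15.7 and 15.1 in CD45.1 and 1.75, 0.872 and 1.19 in CD45.2 (adjusted p = 0.0111). In each of these 4 the lowest CD45.1 library was above the highest CD45.2 library, and the site at +58.8 kb differed in the same direction before LPS. Zfp703 +0.8 kb, in the intron beside the promoter, held 56.3, 70.0 and 54.6 tags in CD45.1 and 7.57, 32.9 and 31.5 in CD45.2 after LPS, and untreated 29.3, 33.1 and 35.8 in CD45.1 and 25, 24.2 and 25.3 in CD45.2. CD45.2 LPS mouse 1 was far lower than the other two, and the difference was 1.19 ± 0.39 (adjusted p = 0.0413). With the mouse as a block 2 of the 7 calls remained, Fam49a +58.8 kb (0.037) and Samsn1 -24.3 kb (0.0488), and Osbpl8 -30.0 kb (0.0541), Zfp703 +0.8 kb (0.107) and Samsn1 -20.6 kb (0.253) were lost. Leaving out 1 library, 0 were called without CD45.1 LPS mouse 2 or without CD45.2 LPS mouse 2, 3 without CD45.1 LPS mouse 3, 4 without CD45.1 LPS mouse 1, 2 without CD45.2 LPS mouse 3 and 5 without CD45.2 LPS mouse 1.

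**Figure D4:**
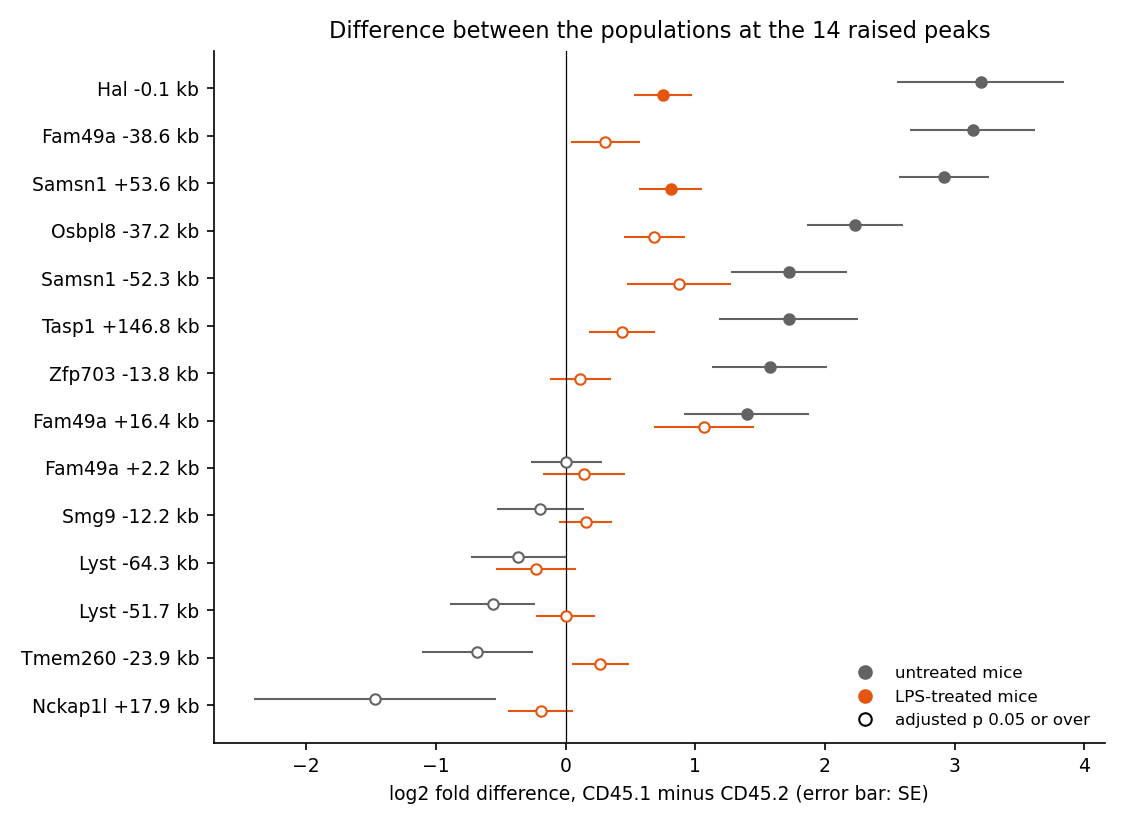
Log2 difference between CD45.1 and CD45.2 cells (x axis, SE bars) at the 14 raised peaks (y axis), in untreated and LPS-treated mice, with open circles where the adjusted p was 0.05 or over. The 8 filled untreated points lie between 1.40 and 3.20, and the LPS points of the same peaks lie nearer 0.

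Whether the rise itself differed between the populations was tested as the interaction of population and treatment in all 12 libraries. The genes were chosen for rising in both populations, which bears on this contrast, so nothing is read from the share that passed. Of the 59 matched peaks 4 passed (adjusted p under 0.05, DESeq2), against 0.242% of all tested matched peaks, and all 4 were raised peaks with the larger rise in CD45.2. Over the genome 88 of the 95 called interactions went the same way. The difference of the log2 fold changes (CD45.1 minus CD45.2) was -2.80 ± 0.49 at Fam49a -38.6 kb (adjusted p = 7.90e-05) and -2.07 ± 0.39 at Samsn1 +53.6 kb (adjusted p = 2.07e-04). It was -2.42 ± 0.57 at Hal -0.1 kb (adjusted p = 0.0123) and -1.51 ± 0.39 at Osbpl8 -37.2 kb (adjusted p = 0.0483). In the values by library the untreated CD45.2 group was the lowest of the 4 at each of these sites, and the LPS groups were within 2-fold of each other. With the mouse as a block the adjusted p at Osbpl8 was 0.297, and that call was lost. Leaving out 1 of the 12 libraries at a time lost Osbpl8 in 9 cases (adjusted p up to 0.472) and Hal without CD45.1 untreated mouse 6 (0.122) or CD45.2 untreated mouse 5 (0.37), where the count was 2, while Fam49a -38.6 kb and Samsn1 +53.6 kb passed each time. Scaled to total tags, Osbpl8 (adjusted p = 0.545) and Hal (0.101) were lost. The other 10 raised peaks did not pass. Zfp703 -13.8 kb had a difference of -1.44 ± 0.41 (adjusted p = 0.116), Tasp1 +146.8 kb -1.27 ± 0.48 (0.562), and Nckap1l +17.9 kb 1.28 ± 0.67 (0.916), the last in the opposite direction with a wide error.

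Summed over all peaks of a gene, tags differed between the populations at 2 of the 10 genes in untreated mice, against 14.8% of all genes tested. The Fam49a sum was 719 ± 23.3 tags (mean ± SD, n = 3) in CD45.1 and 481 ± 15.2 in CD45.2, a log2 difference of 0.58 ± 0.10 (adjusted p = 1.08e-07, DESeq2). The Hal sum, which includes peaks within Lta4h, was 102 ± 11.9 and 39.9 ± 8.66, a difference of 1.33 ± 0.25 (adjusted p = 1.80e-06). After LPS the same 2 genes passed, against 7.07%. Fam49a differed by 0.47 ± 0.15 (adjusted p = 0.0264) and Hal by 0.70 ± 0.21 (adjusted p = 0.0154). With the mouse as a block the adjusted p after LPS was 0.284 and 0.205, so neither call was kept. Neither passed without CD45.1 LPS mouse 2 or 3 or without CD45.2 LPS mouse 2 or 3, and without CD45.1 LPS mouse 1 only Fam49a did. Scaled to total tags, the untreated Fam49a call was lost and that of Hal remained. The sums of the other 8 genes differed by between -0.33 and 0.25 in untreated mice and by between -0.05 and 0.36 after LPS.

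Some peaks had no matched partner in the other table, 22 of 81 in untreated mice and 25 of 84 after LPS. Of these, 18 and 21 still had no partner when peaks were matched at an overlap of 1 bp. From a single library list came 11 of the 18 and 14 of the 21. The 18 include the untreated peak Tmem260 -23.8 kb, which did overlap the LPS peak Tmem260 -23.9 kb. That LPS peak was matched to the untreated peak Tmem260 -24.0 kb. Of the 21, 16 had enough tags to be tested, and these had group means from 2.62 to 34.2 tags in CD45.1 and from 0.792 to 33.9 in CD45.2, scaled over the LPS libraries, and 3 exceeded 20 tags in both populations. The 2 of them that were in all 6 LPS lists are named after their values were seen. Tasp1 +147.7 kb (chr2:139744726-139744939), close to the raised peak of that gene, had 21, 39.1 and 42.5 tags in CD45.1 and 38.5, 27 and 31.5 in CD45.2. Lyst +75.9 kb (chr13:13758445-13758674, intron 18 of 52) had 16.2, 22.2 and 24.5 in CD45.1 and 33.3, 31.4 and 32.1 in CD45.2. The populations overlapped at Tasp1, and at Lyst CD45.2 was higher in each library without passing the test (adjusted p = 0.441, DESeq2). Both sites also had peaks in 2 untreated single-library lists, of CD45.1 at Tasp1 and of CD45.2 at Lyst, so both were detected in some untreated libraries.

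The rule did not use sequence. The 100 bp on either side of the centre of each peak were searched on both strands for AP-1 (TGANTCA), CEBP (TTGCNNAA), IRF (GAAANNGAA), PU.1 (GAGGAAG), RUNX (TGTGGT), CRE (TGACGTCA), STAT (TTCNNGGAA or TTCNNNGAA), the glucocorticoid receptor (ACANNNTGT) and NF-kappaB (its usual consensus), where matches of different motifs may overlap. AP-1 matched 7 of the 13 distal raised peaks of the set (53.8%), 5 of the other 34 distal matched peaks (14.7%), 42.2% of the 1561 distal peaks raised in both populations over the genome, and 12.8% of all 26519 distal matched peaks. Including the Hal promoter, 8 of the 14 raised peaks held a match, those of Nckap1l, Tmem260, Smg9, Zfp703, Hal, Samsn1 -52.3 kb, Fam49a -38.6 kb and Fam49a +2.2 kb. The 13 held 1 match each (7.69%) to CEBP, IRF, PU.1, RUNX, STAT and NF-kappaB, and 0 to CRE and the glucocorticoid receptor. The shares over all distal matched peaks were 13.1% for CEBP, 9.61% for IRF, 26.1% for PU.1, 19.4% for RUNX, 6.17% for STAT, 3.75% for NF-kappaB, 0.716% for CRE and 7.26% for the glucocorticoid receptor. The NF-kappaB match was at Tmem260 -23.9 kb and the IRF match at Tasp1 +146.8 kb. Osbpl8 -37.2 kb, Lyst -51.7 kb, Lyst -64.3 kb and Fam49a +16.4 kb held none of these letters. Counts of 13 peaks are small, and a match is not a bound site.

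**Figure D5:**
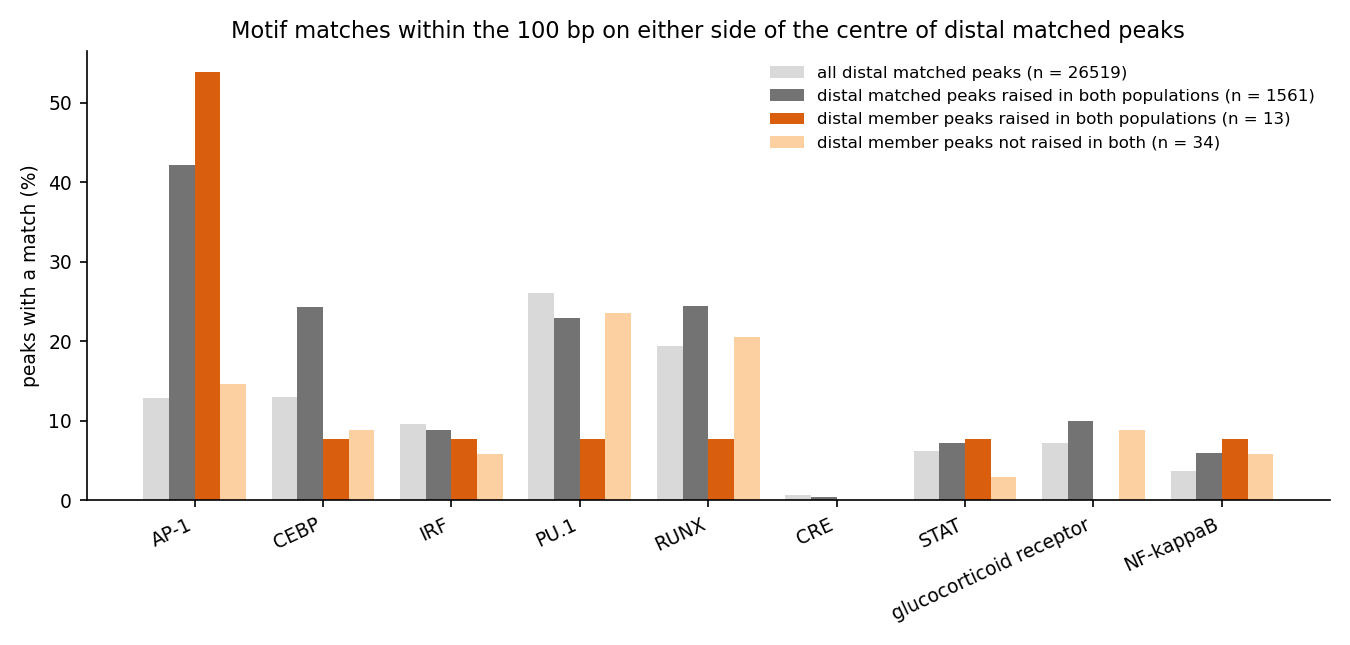
Percent of distal matched peaks with a match to each of 9 motifs (y axis, bars from 0; x axis, motif) in 4 sets of peaks. The AP-1 bars are 12.8% for all peaks, 42.2% for peaks raised in both populations, 53.8% for the 13 raised peaks of the set and 14.7% for its other 34.

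Other genes of the same families and complexes were described from 8 lists of 51 genes, of which 45 had a matched peak, 186 peaks in all. Here a change means over 2-fold with an adjusted p under 0.05 by DESeq2. In CD45.1 11 of the 186 peaks rose and 6 fell, against 6.77% and 4.98% of all tested matched peaks, and in CD45.2 14 rose and 4 fell, against 7.68% and 3.7%. These shares were close to the background. The median log2 fold change over the 186 was 0.040 for CD45.1 and -0.019 for CD45.2. Among WAVE complex and RAC genes, Cyfip1 +4.3 kb rose by 2.09 ± 0.28 and 1.73 ± 0.26 and Cyfip2 -2.0 kb by 1.40 ± 0.34 and 3.38 ± 0.55 (log2, CD45.1 and CD45.2). Both encode WAVE subunits that bind RAC1. In this list 5 of 67 peaks rose and 1 fell in CD45.1, and 6 rose and 2 fell in CD45.2. Wasf2 -35.2 kb fell in both populations, by -1.51 ± 0.55 and -1.38 ± 0.52. Among oxysterol-binding proteins, the lipid-transfer family of Osbpl8, 2 of 31 peaks rose and 3 fell in CD45.1, and 1 rose and 2 fell in CD45.2. Osbpl11 -15.4 kb rose by 3.53 ± 0.67 and 3.51 ± 0.63. Osbp -8.3 kb fell in both populations, by -1.75 ± 0.50 and -1.33 ± 0.41, and Osbpl11 -5.0 kb fell in CD45.1, by -2.40 ± 0.71. Zfp503, the relative of Zfp703, had 1 of 6 peaks raised in each population, Zfp503 -10.1 kb, by 2.76 ± 0.39 and 2.72 ± 0.43. Of 18 peaks of the SAM and SH3 adaptors, 2 rose in CD45.1 and 4 in CD45.2, all at Sash1, with Sash1 +15.5 kb at 1.54 ± 0.21 and 3.79 ± 0.41. Among 20 peaks of nonsense-mediated decay genes 1 rose in each population, Upf3a +0.1 kb at 1.32 ± 0.44 and 1.52 ± 0.41, and 1 fell in CD45.1. Among 30 of BEACH-domain genes 1 fell in CD45.1 and 1 rose in CD45.2. In histidine catabolism (6 peaks) and taspase substrates (8 peaks) 0 changed, and 0 did at an unadjusted p under 0.05 with over 2-fold or by edgeR.

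The pattern of the 9 lead distal peaks raised in both populations was taken as the mean of their standardized levels over the 12 libraries. The lead distal peak of Hal was left out. This pattern was compared with 26472 distal matched peaks of other genes by Pearson's r, as a description. The 5 most alike were peaks at Ttc39b (r = 0.990, 15.1 kb from the start site), Nfia (0.990, 37.1 kb), Aim2 (0.987, 31.3 kb), Nhsl2 (0.986, 105.0 kb) and Nudt16l1 (0.985, 25.9 kb). The 12 points share the treatment, the table and the depth of their libraries, and the log2 rise of these peaks lay between 0.67 and 2.79 in CD45.1 and between 0.85 and 2.98 in CD45.2.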

How the data were processed

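The processed tables of 12 ATAC-seq libraries were used. Per the labels and the study, reads were demultiplexed with bcl2fastq (2.17.1.14), aligned to mm9 with Bowtie2, stripped of duplicates with Picard (1.108), and called as peaks with HOMER. The authors merged the peaks of the 6 libraries of each treatment and deposited estimated counts, tags per merged peak in steps of 0.5. The single-library lists deposited by the authors give the fold of each peak over its local 10 kb, a ratio used here only for peak support. Tags were rounded to whole counts, and peaks with over 10 in at least 1 library were tested with DESeq2 (1.42.0, R 4.3.3), as in the study. The DESeq2 fits were first run on simulated data. The alternative, edgeR (4.0.16), was not run on simulated data. Peaks of the tables were matched at an overlap of at least 50% of each. The members and the lists were chosen with earlier results of these data known. Values in every library are given for the lead peak of each gene, for peaks called between the populations or for the interaction, and promoters are given where compared. A lead peak is the distal matched peak with a mean of at least 10 tags and the largest of the smaller of both log2 changes. Mouse numbers pair the libraries, since both populations were sorted from the same animal. Deviations from the group means correlated at -0.064 to 0.149 within mice and -0.155 to 0.114 between mice. Libraries of a group are from separate animals. Motifs were matched in the mm9 genome, and gene models were taken from GENCODE vM1, in which the 10 genes were found by symbol or synonym. Depth is given with the results, and precision rests on 3 libraries per group.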

Additional observations from a re-analysis of the deposited data

Results flagged for a closer look

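At 4 raised peaks the change after LPS differed between the populations in the test of the interaction over 12 libraries (DESeq2, adjusted over all matched peaks), each with the larger rise in CD45.2. The log2 difference of the changes, CD45.1 minus CD45.2, was -2.80 ± 0.49 (SE) at Fam49a -38.6 kb, -2.42 ± 0.57 at Hal -0.1 kb, -2.07 ± 0.39 at Samsn1 +53.6 kb and -1.51 ± 0.39 at Osbpl8 -37.2 kb. Fitted with the mouse as a block, Osbpl8 did not pass (adjusted p = 0.297). Leaving out 1 of the 12 libraries at a time lost Osbpl8 in 9 cases (adjusted p up to 0.472) and Hal in 2 (0.122 and 0.37), and both were lost when scaled to total tags (0.545 and 0.101). At these sites every untreated CD45.2 library was below every untreated CD45.1 library. The members were chosen for a rise in both populations, which bears on this contrast, so nothing is read from how many passed. The interval after transplantation and the peak sets go with the treatment or are unknown. The part of the choice, the interval and the peak sets was not tested.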

How the results depend on the processing

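Where both populations of a mouse were fitted with the mouse as a replicate block, 12 of 17 untreated calls, 2 of 7 LPS calls, 3 of 4 interactions, 2 of 2 untreated gene sums and 0 of 2 LPS gene sums passed, and the block changed no other call than those named in the results. With edgeR the counts were 24, 12, 4, 2 and 2. A mean count of at least 20 left 14 untreated and 2 LPS calls. Scaling to total tags gave 12 untreated and 8 LPS calls, 2 interactions, 1 untreated gene sum and 21 calls at related genes instead of 35, and put the median LPS change of all matched peaks at -0.041 in CD45.1 and -0.148 in CD45.2 and the median population difference after LPS at 0.136. Leaving out each library in turn gave 11 to 16 untreated calls, 0 to 5 LPS calls, 2 to 5 interactions, 2 to 2 untreated and 0 to 3 LPS gene sums, 13 to 15 raised peaks and 25 to 39 calls at related genes. An overlap of 1 bp gave 15 raised peaks. Of 806 alternative values for 60 single peaks and genes, 650 kept direction and side of the threshold or stayed within the spread, 96 lost the call, 60 moved and 0 changed direction; the cause was not tested. Depth was lower after LPS, and several called peaks there rested on under 20 tags per library.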
